A study of Mus musculus with 6 samples.

Results

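The choroid plexus epithelium is the sheet of cells in the brain ventricles that secretes cerebrospinal fluid, and 10 of its genes were followed in the forebrain RNA of mice after 1 h of water avoidance stress (WAS) and of control mice. The genes were Ttr, Folr1, Kl, Clic6, Aqp1, Kcne2, Enpp2, Kcnj13, Sostdc1 and F5, found by their symbols among 23282 entries of the count tables. They were chosen by their scaled counts in these same 6 libraries, read per library and by labelled group, so that their levels and fold changes are given as a description, with no test. All 10 had an entry, and all 10 passed the filter on low counts that left 15239 genes for the comparison of the groups.

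The animals were male C57BL/6J mice of 8 to 10 weeks, and no genetic change or drug was used in either group. Mice of the WAS group stood for 1 h on a small platform in a basin of water, and control mice stood for 1 h on the same platform in a basin without water. One hemisphere of the forebrain, with the olfactory bulb and the cerebellum removed, gave 1 QuantSeq library of 3′ transcript ends for each of 3 mice per group. In the deposited tables, the column headings begin with WC where the label says WAS and with WS where it says control, and the sources used here do not define these letters. The study also calls its treatment water stress, so that WS can be read as the stressed group, against the labels. Groups follow the sample labels, and with exchanged labels every direction between the groups would be the opposite.

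The epithelium is joined by tight junctions and forms the barrier between blood and cerebrospinal fluid. It carries ions and water across by pumps, channels and carriers, takes folate from the blood, and releases transthyretin, growth factor antagonists and enzymes into the fluid. It hangs into the ventricles by a thin stalk. Several of the 10 genes are also read in other cells of the brain, such as Enpp2 in oligodendrocytes, Kl in neurons and Aqp1 in some vessels.

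Library totals ran from 9248520 to 10502029 counts, so that 1 count was worth about the same in each. There were 2 libraries, 1 of each group, that stood apart in the genes described here, namely WAS replicate 1 and control replicate 2. WAS replicate 1 and WAS replicate 3 also held less RNA of striatal genes than the others, with a summed level of 148.5 and 353 CPM (counts of a gene per 1000000 counts of the library) for 9 listed genes against 871 to 1765 CPM in the other 4 libraries. Differences between the groups are therefore given with all 6 libraries and without WAS replicate 1 and control replicate 2.

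Ttr encodes transthyretin, the carrier of thyroid hormone and, with retinol-binding protein, of retinol, and in the brain it is known as a product of the choroid plexus. The libraries labelled WAS held 364, 10626 and 8874 counts of Ttr in the order of their replicate numbers, and those labelled control held 12599, 114 and 9085. As CPM, this was 36.2 CPM (95% exact Poisson interval 32.5 to 40.1) in WAS replicate 1 and 11.0 CPM (9.06 to 13.2) in control replicate 2, against 889 to 1200 CPM in the other 4 libraries. Each group thus held 1 library with little Ttr and 2 libraries with much of it, and the groups overlapped. The intervals cover counting error alone, since reads without molecular identifiers are not independent molecules. Relative to the median of the 6 libraries, Ttr stood at 4.02% in WAS replicate 1 and at 1.22% in control replicate 2. The level of the third lowest library was 24.6 times that of WAS replicate 1, while the highest library was at 1.35 times the third lowest. In bulk RNA, fewer cells of a type and less RNA per cell cannot be told apart.

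**Figure D1:**
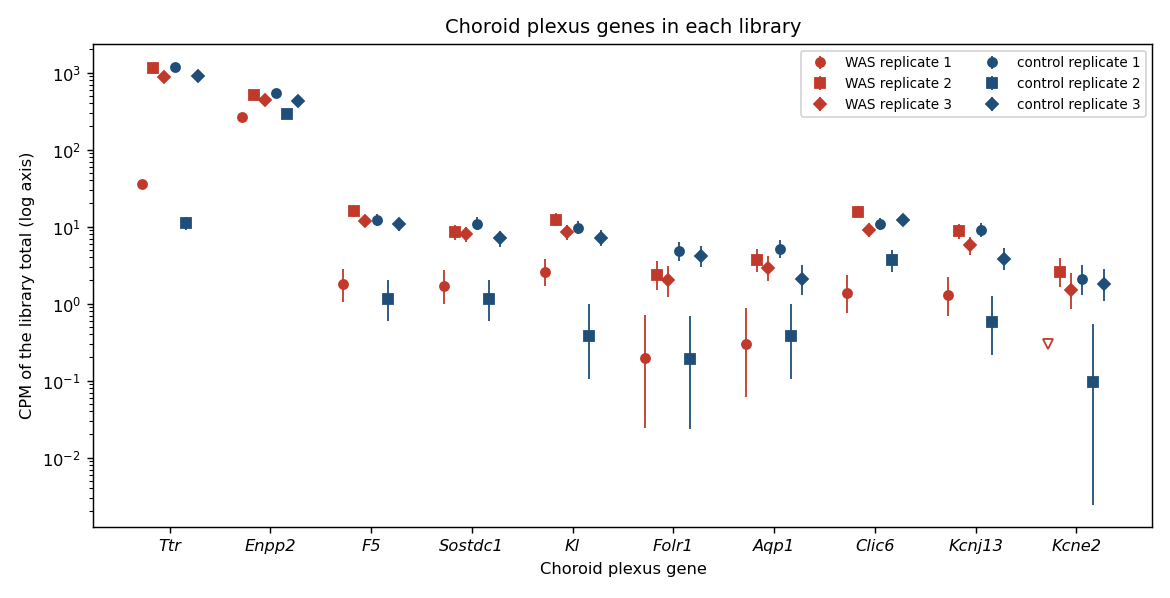
CPM of the library total on a log axis for the 10 choroid plexus genes in each of the 6 libraries, red for the libraries labelled WAS and blue for those labelled control, with 95% exact Poisson intervals as bars. WAS replicate 1 and control replicate 2 are the lowest libraries for all 10 genes, and the open triangle stands for Kcne2 in WAS replicate 1, where no read was counted, at the 0.298 CPM that 3 counts would give.

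Of the other secreted proteins, F5 encodes coagulation factor V and Sostdc1 an extracellular antagonist of BMP and Wnt signals. In the same order, F5 had 18, 148 and 118 counts in the WAS libraries against 127, 12 and 107 in the control libraries. Sostdc1 had 17, 79 and 79 counts against 115, 12 and 70. Both genes were lowest in control replicate 2 and next lowest in WAS replicate 1, at 1.16 and 1.79 CPM for F5 and at 1.16 and 1.69 CPM for Sostdc1. In the other 4 libraries F5 lay between 10.7 and 16.0 CPM and Sostdc1 between 7.02 and 11.0 CPM.

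Kl encodes klotho, a membrane and shed protein that serves as the co-receptor of FGF23. The WAS libraries held 26, 114 and 84 counts of Kl, and the control libraries 102, 4 and 71. The 2 low libraries stood at 2.58 CPM (1.69 to 3.78) in WAS replicate 1 and 0.385 CPM (0.105 to 0.987) in control replicate 2, and the intervals cover counting error in 1 library each. Relative to the median library, Kl stood at 33.3% in the first and at 4.96% in the second.

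Folr1 encodes folate receptor alpha, through which the epithelium moves folate into the cerebrospinal fluid. It had 2, 22 and 20 counts in the WAS libraries against 51, 2 and 41 in the control libraries. WAS replicate 1 and control replicate 2 were at 0.199 CPM (0.0241 to 0.718) and 0.193 CPM (0.0233 to 0.696). The remaining libraries fell into 2.38 and 2.00 CPM for WAS replicates 2 and 3, and 4.86 and 4.11 CPM for control replicates 1 and 3. The last 500 bases of the Folr1 transcript share a stretch of 50 bases with Gm18334, and because multiple alignments were counted, the Folr1 counts are uncertain to that extent.

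The channel genes showed the same libraries at the bottom. Aqp1 encodes the water channel aquaporin-1 of the apical membrane, with 3, 34 and 29 counts in the WAS libraries and 54, 4 and 21 in the control libraries. Kcne2, an accessory subunit of potassium channels, had 0, 24 and 15 counts against 22, 1 and 18. For WAS replicate 1, the 0 counts of Kcne2 allow a level of up to 0.298 CPM, taken as 3 counts of the library, which is a one-sided limit and not the upper end of the intervals above. Kcnj13 encodes an inward rectifier potassium channel, with counts of 13, 81 and 57 against 95, 6 and 38. Clic6, a member of the chloride intracellular channel family, had 14, 145 and 91 counts against 114, 38 and 122. For Clic6 the order of the 2 low libraries was the opposite of that for Kl, with 1.39 CPM (0.760 to 2.33) in WAS replicate 1 and 3.66 CPM (2.59 to 5.02) in control replicate 2.

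Exons of Kcnj13 overlap exons of Gigyf2 on the opposite strand, and whether strand was used in counting is not given in the sources used here. Gigyf2 had between 509 and 732 counts in every library, with 631 in WAS replicate 1 and 635 in control replicate 2, so that its counts were not low where those of Kcnj13 were. Exons of Enpp2 and F5 also overlap noncoding genes on the opposite strand, Gm26684 and Gm16548. For Gm16548 all 6 libraries had 0 counts.

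Kcne2 and Clic6 lie near each other on chromosome 16 of mm10 (GRCm38), at 92292389 to 92298129 and 92485736 to 92541243. The gap of 187606 bases between them holds 4 protein-coding genes of GENCODE M21, namely Smim11, Fam243, Kcne1 and Rcan1. F5 and Kcnj13 are both on chromosome 1, at 164151838 to 164220277 and 87386363 to 87394729. Kl is on chromosome 5 at 150952607 to 150993817, Aqp1 on chromosome 6 at 55336432 to 55348555 and Folr1 on chromosome 7 at 101858331 to 101870788. Sostdc1 is on chromosome 12 at 36314139 to 36318452 and Enpp2 on chromosome 15 at 54838901 to 54952892.

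Promoter sequence of RefSeq (GRCm38.p6, 250 bases before to 50 bases after a transcription start) was found for 5 of the 10 genes. Those of the potassium channel genes Kcnj13 and Kcne2 are shown as examples. Their low libraries do not set them apart, since all 10 members had the same 2 lowest libraries. Of the 5 genes, only Kcnj13 held a match to the motifs named below. Kcnj13 is at chr1:87394680-87394979 on the minus strand and Kcne2, at its upstream start, at chr16:92292139-92292438 on the plus strand. Capitals mark a match on either strand to TATAAA, the TATA box, to CCAAT, or to TAATCC, which is bound by OTX proteins.
Kcnj13: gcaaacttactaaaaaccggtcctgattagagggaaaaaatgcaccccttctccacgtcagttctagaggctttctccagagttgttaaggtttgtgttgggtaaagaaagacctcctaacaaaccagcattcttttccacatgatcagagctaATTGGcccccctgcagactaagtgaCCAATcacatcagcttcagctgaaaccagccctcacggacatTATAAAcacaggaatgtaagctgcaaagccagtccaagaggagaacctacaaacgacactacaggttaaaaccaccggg
Kcne2: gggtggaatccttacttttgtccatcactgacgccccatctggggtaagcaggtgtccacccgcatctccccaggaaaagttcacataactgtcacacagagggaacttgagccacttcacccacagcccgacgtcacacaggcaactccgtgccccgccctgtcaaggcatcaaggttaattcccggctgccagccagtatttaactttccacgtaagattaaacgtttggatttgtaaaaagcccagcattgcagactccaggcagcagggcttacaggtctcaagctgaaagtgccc
The motifs do not overlap each other in these windows. In Kcnj13, TATAAA begins 29 bases before the start, and matches to CCAAT, as CCAAT and as its reverse complement ATTGG, begin 71 and 96 bases before it. No letters are capitals in Kcne2. Over the 6 promoters of the 5 genes, TATAAA and CCAAT were each found in 1 promoter and TAATCC in 0. Over all 32851 promoters of the same length, TATAAA was found in 13.6%, CCAAT in 37.4% and TAATCC in 7.06%. A missing match says only that these letters are not in this window.

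Enpp2 behaved differently in size. It encodes autotaxin, the secreted enzyme that makes lysophosphatidic acid, and it is read in oligodendrocytes as well as in the choroid plexus. The WAS libraries held 2707, 4731 and 4450 counts of Enpp2, and the control libraries 5742, 3022 and 4288. The same 2 libraries were lowest, but at 268.9 and 291 CPM against 429.7 to 547 CPM in the others, and the third lowest library was at 1.48 times the level of the second lowest. The oligodendrocyte gene Mbp, which encodes a main myelin protein, did not share the order of Enpp2. It had 22749, 22046 and 27172 counts in the WAS libraries against 26710, 22597 and 20984 in the control libraries. WAS replicate 1 and control replicate 2 both lay within the range of the other libraries for Mbp.

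The sum of the members other than Ttr and Enpp2 kept a nearly fixed ratio to Ttr in 4 libraries. Summed over these 8 genes, the WAS libraries held 93, 647 and 493 counts and the control libraries 680, 79 and 488. For each count of these 8 genes there were 16.4 and 18.0 counts of Ttr in WAS replicates 2 and 3 and 18.5 and 18.6 in control replicates 1 and 3. Single members varied more, and per count of Folr1 there were 222 to 483 counts of Ttr in these 4 libraries. The ratio to the sum was 3.91 in WAS replicate 1 and 1.44 in control replicate 2. Ttr was therefore lower by a larger factor than the sum of the 8 other genes in both low libraries, and more so in control replicate 2.

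**Figure D2:**
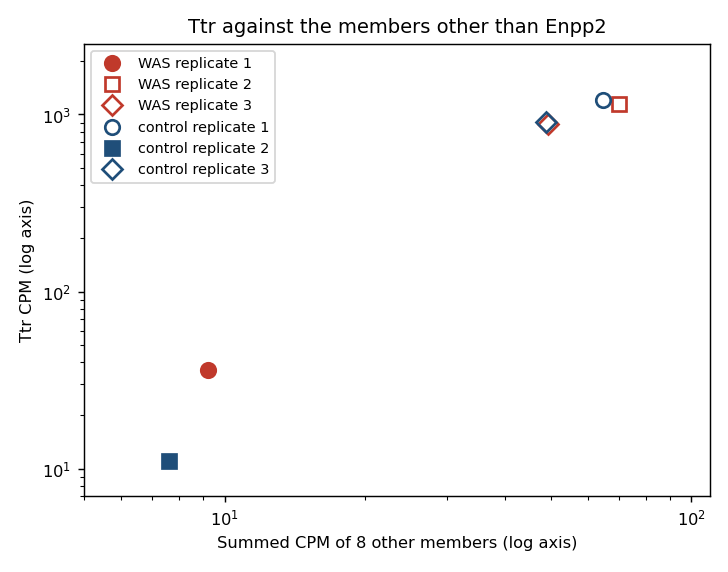
Ttr CPM against the summed CPM of the 8 members other than Ttr and Enpp2, both on log axes, with 1 point per library (filled for WAS replicate 1 and control replicate 2). The open symbols sit together at 48.9 to 70.0 CPM of the 8 genes, while WAS replicate 1 and control replicate 2 sit at 9.24 and 7.61 CPM.

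The spread of these genes within the groups was among the highest of all genes. The SD of log2 CPM around the group means was 3.32 for Ttr, which ranked 1 of the 15239 genes tested. Another 8 members, from Kcne2 at 1.84 to Clic6 at 1.39, ranked between 17 and 67. Enpp2, at 0.47, ranked 2479. The median over the members was 1.66, beside 0.20 over all genes tested. These ranks describe the values by which the members were chosen and are not independent of that choice.

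In the comparison of the labelled groups with all 6 libraries, the difference of each member was smaller than its spread within the groups. Ttr was at 691 ± 582 CPM with the WAS label against 707 ± 620 CPM with the control label (SD, n = 3 each). Its log2 fold change, for the libraries labelled WAS relative to those labelled control, was -0.065 with a standard error of 1.14. Enpp2 was at 409 ± 125 CPM against 423 ± 128 CPM (SD, n = 3 each), a log2 fold change of -0.083 with a standard error of 0.24. For 7 of the 10 genes the fold change was below 0 and for 3, namely Kl, Kcnj13 and F5, above 0, with a median of -0.070 beside 0.00088 over all genes tested. The values ran from -1.04 (standard error 0.84) for Folr1 to 0.40 (standard error 0.70) for Kl. The study's threshold was a fold change of at least 1.5, applied here together with a p under 0.05 before adjustment. Of the 10 members 0 met these criteria in edgeR, and 2.49% of all genes tested did, 1.82% as higher and 0.676% as lower. This count is not a test of the members, and nothing is read from it, since the members were chosen on the same values. The groups overlapped for all 10 members, while they did not overlap for 12.2% of all genes tested.

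Leaving out WAS replicate 1 and control replicate 2, which leaves 2 libraries in each group, the standard errors were smaller for each of the 10 members. Ttr was at 1149 and 889 CPM in WAS replicates 2 and 3 and at 1200 and 911 CPM in control replicates 1 and 3. Its log2 fold change was then -0.089, with a standard error of 0.15. F5 and Kl were at 0.24 and 0.26 (standard errors 0.22 and 0.27), and Sostdc1 at -0.17 (standard error 0.27). Clic6 and Kcne2 changed sign, from -0.074 and -0.011 with all libraries to 0.058 and 0.025, all of these values being under 0.1 in size. The median over the members was -0.021.

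In these 4 libraries the groups did not overlap for 1 of the 10 members, Folr1, beside 34.9% of all genes tested. Its log2 fold change was -1.07 with a standard error of 0.39, from the 2.38 and 2.00 CPM of the libraries labelled WAS and the 4.86 and 4.11 CPM of those labelled control. The counts of Folr1 were 20 to 51 in these libraries. Folr1 was taken out of 10 genes after their values were seen, and the 2 libraries were left out for the values of these same genes, so that the difference is a description and not a test.

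**Figure D3:**
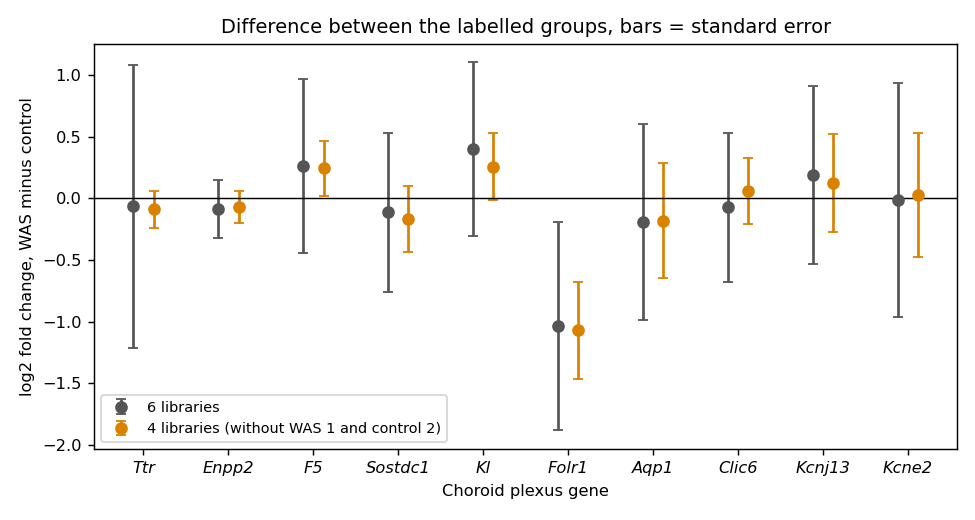
Log2 fold change of each choroid plexus gene, libraries labelled WAS minus libraries labelled control, with the standard error of the edgeR fit as bars, for all 6 libraries (grey) and for the 4 libraries without WAS replicate 1 and control replicate 2 (orange). The standard error of Ttr is 1.14 with 6 libraries and 0.15 with 4, and the value of Folr1 is -1.04 and -1.07.

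Beside the members, a list of 45 other genes known for the choroid plexus was followed, of which 41 were tested. They comprise transcription factors, ion and solute carriers, tight junction proteins, secreted proteins and others, and many are also read in other brain cells. With all 6 libraries, 30 were above 0 and 11 below 0, with a median log2 fold change of 0.15 beside 0.00088 over all genes tested. By edgeR with adjustment over every gene tested, 0 of them had an adjusted p under 0.05, and 0 did so with DESeq2. At an unadjusted p under 0.05, 4 were higher and 1 was lower in the libraries labelled WAS, beside 7.24% of all genes tested, 3.85% as higher and 3.40% as lower. The 4 were Lmx1a, Slc4a2, Slc5a5 and Htr2c, and the 1 that was lower was Ezr. Without WAS replicate 1 and control replicate 2, 28 were above 0 and 13 below 0, with a median of 0.13 beside 0.0042 over all genes tested. Then 3 genes, Lmx1a, Car12 and Htr2c, had an unadjusted p under 0.05, all higher, beside 4.43% of all genes in either direction, and 0 had an adjusted p under 0.05 in edgeR.

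Of these, 1 gene, Lmx1a, met the criteria of fold change and unadjusted p, beside 2.49% of all genes. Lmx1a encodes a LIM homeodomain factor of the roof plate and of midbrain dopamine neurons. It had 8, 16 and 9 counts in the libraries labelled WAS against 3, 0 and 1 in those labelled control (edgeR adjusted p = 0.514). The groups did not overlap, but all control libraries were at or under 3 counts, and its fold depends on the count added in the fit. Without WAS replicate 1 and control replicate 2, Lmx1a and Car12, a carbonic anhydrase, met the criteria, beside 1.72% of all genes tested (edgeR adjusted p = 0.975 for both). Htr2c, a serotonin receptor read in the choroid plexus and in many neurons, was at 52.0 ± 4.27 CPM against 34.1 ± 5.77 CPM (SD, n = 3 each), and the log2 fold change was 0.57 ± 0.13 (standard error), with an edgeR adjusted p = 0.477. In the 4 libraries the log2 fold change of Htr2c was 0.47, with a standard error of 0.15. In WAS replicate 1 and control replicate 2, where Ttr was at its lowest, Htr2c had 511 and 298 counts.

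Across libraries, part of the wider list had the pattern of the members. By CPM, WAS replicate 1 and control replicate 2 were the 2 lowest libraries for 15 of the 41 genes tested, beside 10 of 10 members and 5.66% of all genes tested. For 8 of them the gap to the next library was at least 1 on the scale of TMM-scaled log2 CPM, beside 9 of 10 members, Enpp2 being the exception, and 0.177% of all genes tested, or 27 genes. The 8 were 1500015O10Rik, Cldn2, Krt18, Mia, Slc4a5, Steap1, Tmem72 and Wfdc2. This pattern was seen in the counts first and is given as a description.

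The first of them, 1500015O10Rik, is also known as Ecrg4 and encodes the secreted peptide precursor augurin. It had 18, 122 and 122 counts in the WAS libraries against 125, 20 and 132 in the control libraries, and in the other 4 libraries it lay between 11.9 and 13.2 CPM. Cldn2, the tight junction claudin of leaky epithelia, had 0, 25 and 15 counts against 20, 2 and 9. Slc4a5, a sodium bicarbonate cotransporter of the apical membrane, had 0, 56 and 22 counts against 34, 5 and 34. Each of these genes thus had its fewest counts in the same library of each group as the members.

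Otx2, the homeodomain factor that the choroid plexus needs to form, was low in control replicate 2 and not in WAS replicate 1. It had 114, 56 and 139 counts in the WAS libraries against 80, 8 and 65 in the control libraries. Prlr, the prolactin receptor, had 93, 118 and 140 counts against 104, 10 and 135. It was lowest in control replicate 2 at 0.963 CPM and next lowest in WAS replicate 1, but there at 9.24 CPM, close to the 9.90 CPM of control replicate 1. Both genes are also read outside the choroid plexus. The 5 genes of the list with the most counts, Atp1b1, Car2, Slc12a2, Ezr and Htr2c, did not have WAS replicate 1 and control replicate 2 as their 2 lowest libraries. Atp1b1, a sodium pump subunit of neurons and epithelia, lay between 28406 and 34923 counts, and Slc12a2, the cotransporter NKCC1, between 643 and 786 counts.

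**Figure D4:**
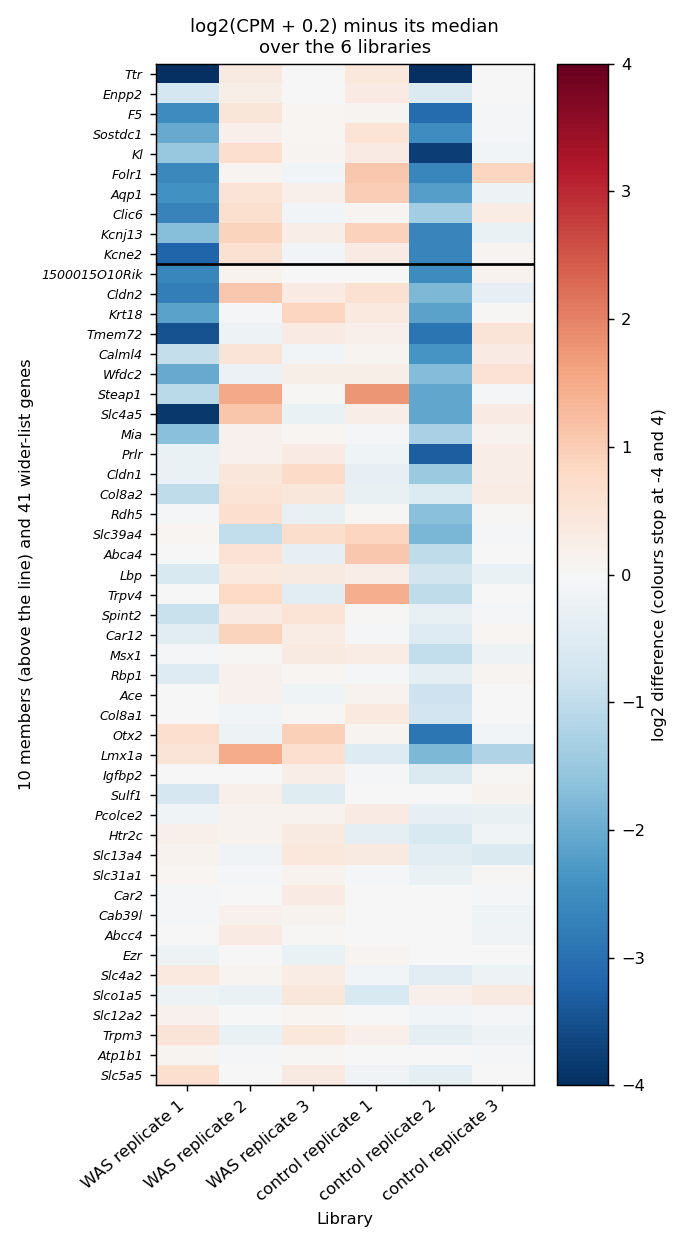
Log2(CPM + 0.2) of each gene minus its median over the 6 libraries, for the 10 members above the line and the 41 tested genes of the wider list below it, the latter ordered by how closely they follow the members. Blue fields gather in the columns of WAS replicate 1 and control replicate 2 for the members and the upper part of the wider list, and fade in its lower part.

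The genes tested with the profile most like that of the members were found by the mean absolute difference, over the 6 libraries, between their centred log2 CPM and the median of the members. In order of likeness they were 1500015O10Rik, Drc7, Nek5, Cldn2, Krt18, Tmem72, Crabp1, Calml4, Ccdc152 and Wfdc2, with differences from 0.22 to 0.46, beside a median of 1.26 over all genes tested. Of these 10 genes, 6 were on the wider list. Drc7, a part of the dynein regulatory complex of motile cilia, had 4, 25 and 27 counts in the WAS libraries against 29, 1 and 20 in the control libraries. Crabp1, a cytosolic retinoic acid binding protein, had 3, 38 and 21 counts against 22, 9 and 21. Among the members, F5 was closest to their median at 0.16 and Ttr the farthest at 1.26, since its range over the libraries was the widest.

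Markers of other cells were compared to see which of them moved with the members. For 14 ependymal genes, those of the ciliated cells that line the ventricles, the summed level was 31.8, 48.0 and 47.3 CPM in WAS replicates 1, 2 and 3 and 47.5, 26.1 and 51.9 CPM in the control replicates. The low libraries were the same as for the members, at 67.1% and 55.1% of the median library. They were the 2 lowest for 9 of the 14 ependymal genes tested. Foxj1, the master regulator of motile cilia, had 63, 94 and 134 counts against 118, 64 and 76, and Enkur, a protein of sperm and cilia, 68, 62 and 62 against 79, 66 and 77. With all 6 libraries 0 of the 14 genes met the criteria between the labelled groups in edgeR, beside 2.49% of all genes tested, and 0 had an unadjusted p under 0.05, beside 7.24%. Without WAS replicate 1 and control replicate 2, Ccdc153, a coiled-coil protein gene, met them as lower in the libraries labelled WAS, 1 of 14 beside 1.72% of all genes. Its counts were 20, 17 and 31 against 36, 15 and 72, and its log2 fold change in the 4 libraries was -1.14, with a standard error of 0.47 (edgeR adjusted p = 0.975).

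Summed levels of the other lists did not have both low libraries of the members as their lowest. For 14 genes of meningeal fibroblasts they were 320, 256 and 322 CPM in WAS replicates 1, 2 and 3 against 237, 181 and 243 CPM in the control replicates. WAS replicate 1 was thus high and control replicate 2 low, and the 2 libraries were the lowest for 0 of these 14 genes. The 10 endothelial genes lay between 299 and 344 CPM in all libraries, and the 10 oligodendrocyte genes between 5513 and 7558 CPM. The 10 genes of forebrain neurons were at 6546, 7019 and 6496 CPM in the WAS replicates against 7749, 8082 and 7643 CPM in the control replicates, and these sums did not overlap between the groups. WAS replicate 1 and control replicate 2 were the 2 lowest libraries for 1 endothelial, 1 oligodendrocyte and 1 neuronal gene, and for 0 of the 7 striatal genes tested. Striatal genes were lowest in WAS replicate 1, at 14.9% of the median library, but control replicate 2 was at 112%. No defining gene of the ependymal, meningeal, endothelial, oligodendrocyte or neuronal lists was at 0 in a library, apart from Dnah6 in WAS replicate 3. The part of dissection or of any other cell type in the levels of the choroid plexus genes was not tested.

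The median fold changes of the meningeal and neuronal lists had opposite signs. Of the 14 meningeal genes, 14 were above 0 in log2 fold change, with a median of 0.35, and 3 had an unadjusted p under 0.05 as higher, beside 3.85% of all genes tested. Of the 10 neuronal genes, 8 were below 0, with a median of -0.25, and 5 had an unadjusted p under 0.05 as lower, beside 3.40%. Camk2a, a calcium-dependent kinase of excitatory neurons, was at 2030 ± 195 CPM against 2489 ± 37.3 CPM (SD, n = 3 each). In edgeR 0 genes of either list had an adjusted p under 0.05. Without WAS replicate 1 and control replicate 2, 13 of the 14 meningeal genes were above 0 and 7 of the 10 neuronal genes below 0, with medians of 0.24 and -0.19, and 1 and 3 of them had an unadjusted p under 0.05, beside 4.43% of all genes tested in either direction.

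Between the labelled groups, Dcn and Slc6a13 were among the genes of these lists that met the criteria of fold change and unadjusted p, both higher in the libraries labelled WAS. Dcn, the proteoglycan decorin, was at 46.6 ± 21.5 CPM against 19.5 ± 4.79 CPM (SD, n = 3 each), and its 647 counts in WAS replicate 1 were its highest, in the library where the members were low. It was at 64.3 and 52.9 CPM in WAS replicates 1 and 3, the libraries low in striatal genes, while WAS replicate 2 at 22.7 CPM was close to control replicates 1 and 3 at 21.8 and 22.7 CPM. By edgeR with all 6 libraries, neither had an adjusted p under 0.05, and over the alternatives that of Dcn lay between 0.000144 and 1.00, the lowest value being the one with WAS replicate 2 left out. Without WAS replicate 1 and control replicate 2, the log2 fold change of Dcn went from 1.22 to 0.73 and Dcn still met the criteria, while Slc6a13 went from 0.72 to 0.55 and did not.

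**Figure D5:**
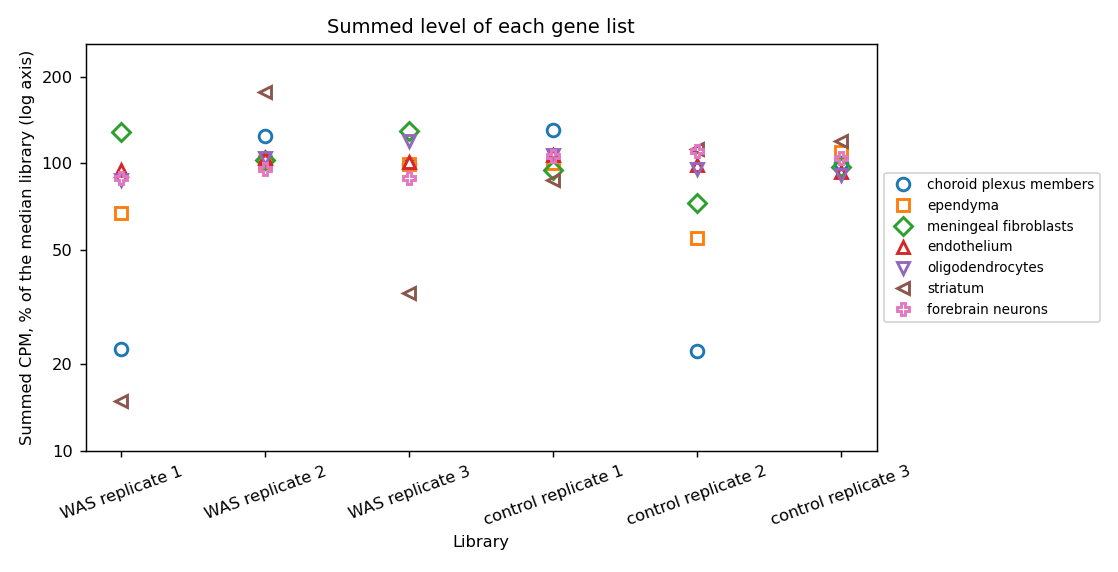
Summed CPM of each gene list in each library as a percentage of its median over the 6 libraries, on a log axis, with 1 symbol per list. The choroid plexus members stand near 22.7% in WAS replicate 1 and 22.3% in control replicate 2, the ependymal list at 67.1% and 55.1%, and the striatal list at 14.9% in WAS replicate 1 and 35.6% in WAS replicate 3. Of the members' sum, Enpp2 makes up 268.9 of 314 CPM in WAS replicate 1 and 291 of 310 CPM in control replicate 2. The 8 members other than Ttr and Enpp2 are at 18.8% and 15.5% of their median library there.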

How the data were processed

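RNA of 1 forebrain hemisphere was sequenced for 3 mice labelled WAS and 3 labelled control. The authors prepared QuantSeq 3′ mRNA-Seq libraries from 500 ng of total RNA, mapped 75 bp single-end reads by Bowtie2, and took counts per gene with Bedtools from uniquely and multiply aligned reads. The submitters' processing notes name mm10. The deposited values are whole-number read counts per gene symbol, not normalized. A 3′ library gives about 1 fragment per transcript, so levels are not divided by length and are not ranked between genes.

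CPM values were counts divided by the library total. Fold changes came from edgeR 4.0.16 (TMM scaling with factors of 0.976 to 1.01, quasi-likelihood test, Benjamini-Hochberg adjustment over 15239 genes) in R 4.3.3, on genes with a mean log2(quantile-normalized count + 1) of at least 2. Standard errors were taken as log2 fold change over the root of the F statistic. The prior count for log2 CPM was 2. The procedure was tested on simulated data. DESeq2 1.42.0 and limma 3.58.1 were alternatives. The members and gene lists were chosen with earlier results of these data known. The text names all members, and of the other lists mainly the most abundant genes, those meeting the criteria and those most like the members. Not every gene of that rule is named, and Cldn2, Slc4a5, Otx2, Prlr, Gigyf2 and the motifs were chosen after values were seen. Same-numbered libraries are not stated to share a batch. Some genes of the lists are not reported here.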

Additional observations from a re-analysis of the deposited data

How the results depend on the processing

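With 1 library left out at a time, the members meeting the criteria numbered between 0 and 1 and those past an adjusted p of 0.05 were 0 throughout. The 1 was Folr1, without control replicate 2, and it was 1, again Folr1, without both WAS replicate 1 and control replicate 2. Counts of members are no test, since these values chose the members. The median log2 fold change of the members ran from -0.55 to 0.53, and the sign of 9 of the 10 members turned with a library left out, Folr1 being the exception. All genes past the criteria were between 261 and 831, and past an adjusted p of 0.05 between 0 and 484, the highest without WAS replicate 2. DESeq2 gave 22 past the adjusted threshold.

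For the wider choroid plexus list, 1 gene met the criteria in the main comparison. It was 2 with total-count scaling, 2 without a filter, 0 with filterByExpr, which left out Lmx1a, and 2 without both libraries. With 1 library left out it was between 1 and 5, the highest without WAS replicate 2, where 1 gene also passed an adjusted p of 0.05 (otherwise 0). For the other lists, 3 genes became 2 to 11, and 0 past the adjusted threshold became 0 to 11, again highest without WAS replicate 2. DESeq2 gave 1 there. Slc6a13 lost the criteria in 5 of the 6 comparisons with a library left out. The causes were not tested.

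Deviations from the group means of same-numbered libraries correlated at 0.066, 0.085 and 0.087 across genes. Libraries of different numbers were not compared in this way, so that whether the replicate numbers mark pairs was not tested. With a replicate block, 49 of all genes passed an adjusted p of 0.05, 2 genes of the wider list and 11 of the other lists met the criteria, and 1 of the latter passed the adjusted threshold.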
